A study of Mus musculus with 6 samples.

Results

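The expression of 10 genes for adipokines and for markers of adipocyte enlargement was followed in the epididymal fat of mice fed a normal diet (ND) or a high-fat diet (HFD). The genes were chosen by symbol, as Lep, Adipoq, Retn, Rarres2, Nampt, Nrg4, Apln, Mest, Sncg and Nnat, through their Ensembl identifiers in the GENCODE M21 annotation of the mouse build GRCm38. All 10 were found among the 54532 genes of the count table, and all 10 were among the 15751 genes that passed the filter on low counts. The fat came from male C57BL/6J mice, an inbred strain, with 3 libraries per diet. The ND held 4.5% fat and the HFD, sold as D12492, held 60% fat. Feeding started when the mice were 4 weeks old and went on for 16 weeks, so that the HFD mice were 20 weeks old. The labels mark both diets as untreated, and do not say whether a library holds 1 animal or a pool. The study asked whether cancer-associated adipocytes (CAAs), or cells like them, are found in obese fat.

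White adipocytes store lipid and also release hormones, the adipokines, that act on the brain, liver, muscle and vessels. Leptin is secreted in proportion to fat mass, whereas adiponectin, the most abundant adipokine, is usually lower in obesity. Mest, Sncg and Nnat do not encode hormones: Mest is a paternally expressed gene for a hydrolase-like protein used as a marker of fat expansion, Sncg encodes gamma-synuclein, a protein of neurons and adipocytes, and Nnat encodes neuronatin, a small membrane protein that is also paternally expressed.

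Depth was alike, with 16996896 to 18859320 counts per library, and 3 counts corresponded to 0.150 to 0.181 CPM (the count scaled to the size of its library), a limit that covers counting error only. Library sizes were scaled by edgeR's TMM method. The third ND library stood apart, since 273 genes had more than 50 counts in it and over 10 times those of any other library, against at most 4 such genes elsewhere, and they held 0.346% of its counts. The fat itself was recognised by 15 adipocyte markers, none of them among the 10 genes, whose CPM values summed to 35061 to 47003 in the ND libraries and to 31387, 41806 and 22996 in the first, second and the third HFD libraries. The 15 macrophage markers summed to 2079 to 2200 CPM on ND and to 5831, 4479 and 9901 CPM on HFD. The 10 markers of the epididymis, the organ beside this fat, summed to at most 1.65 CPM in any library, and 5 of them (Lcn9, Spag11a, Spag11b, Ros1 and Defb1) had 0 counts in every library. By edgeR's test 11 of the 15 macrophage markers were higher on HFD (3, 3 and 7 without the first, second and the third ND library and 5 without the first HFD library), and 2 of the 15 adipocyte markers, Adrb3 and Slc2a4, were lower. Of the adipocyte markers 13 had a negative log2 fold change, HFD over ND, with a median of -0.52 over the 15, and DESeq2 called 5 lower.

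Of the 10 genes, 2 rose on HFD (Lep and Mest) and 2 fell (Retn and Nampt) at an adjusted p under 0.05 by edgeR's quasi-likelihood test with Benjamini-Hochberg adjustment over all genes tested, while 15.9% of the genes tested passed in either direction, 9.85% higher and 6.04% lower. The other 6 did not pass, and Nampt turned to a positive value when the libraries were scaled to the adipocyte markers. Without the first, second or the third ND library 1, 1 and 2 of the 10 genes passed, and without the first HFD library 1 did. In these fits 492 of 16207, 591 of 16270, 1003 of 16072 and 474 of 16194 genes tested passed in turn. Without the second and the third HFD library 4 and 5 passed, beside 3940 of 16298 and 2095 of 16238 genes tested. Below, the change of a gene is its log2 fold change, HFD over ND, ± the standard error of that fit. The HFD and ND values did not overlap in 5 of the 10 genes, against 40.9% of all genes tested. The median log2 fold change of the 10 genes was -0.49, beside 0.01 over all genes tested. In whole tissue, a smaller share of cells of a type and less RNA of a gene per cell cannot be told apart. The labels do not name the source animals, so the p-values measure the spread between these libraries.

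**Figure D1:**
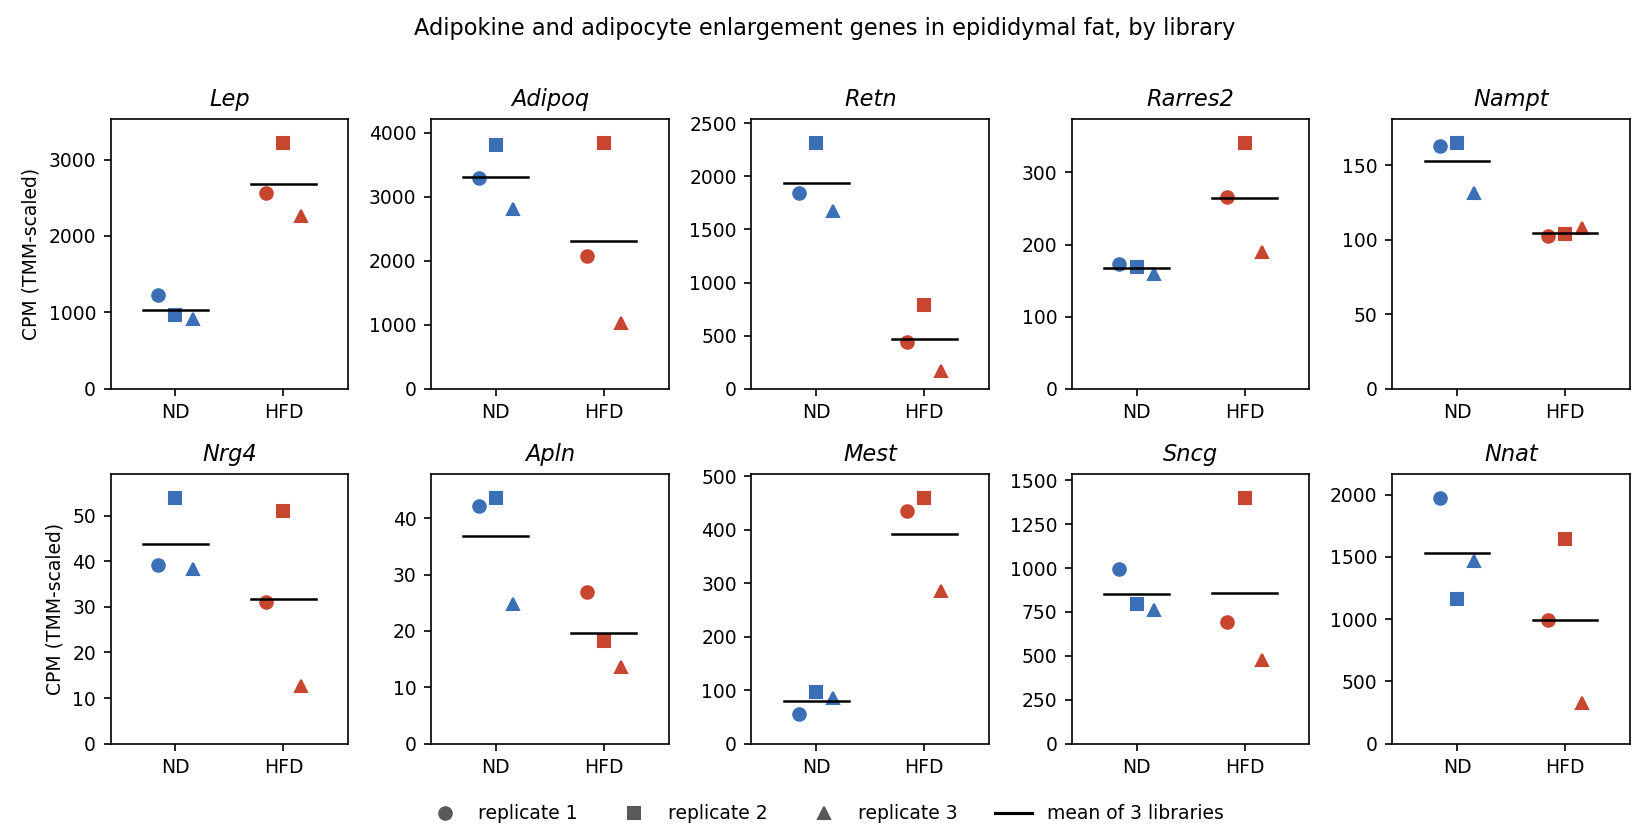
CPM of each of the 10 genes (vertical axes, linear and starting at 0, a scale per panel) in the ND and HFD libraries, where symbols mark the replicate number and lines the mean of 3 libraries. Lep and Mest lie higher and Retn and Nampt lower in every HFD library than in any ND library, and the third HFD library is the lowest of its diet in 9 of the 10 panels.

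Leptin, the satiety hormone that reports fat stores to the hypothalamus, rose. Lep (ENSMUSG00000059201, chromosome 6 from 29060220 to 29073877, plus strand) had 1223, 959 and 908 CPM in the first, second and the third ND libraries and 2568, 3213 and 2259 CPM in the HFD libraries. The lowest HFD library thus lay above the highest ND library. Its change was 1.38 ± 0.23 (n = 3 per diet, edgeR adjusted p = 0.0125), a 2.60-fold increase. The direction held in all 18 alternative fits, with values from 1.23 to 2.02. With 1 library left out the call held in 2 of 6 fits, and the adjusted p became 0.0628 without the first HFD library and 0.0508, 0.0590 and 0.0573 without the first, second and the third ND libraries.

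Mest had the largest increase of the 10 genes. Mest (ENSMUSG00000051855, chromosome 6 from 30723547 to 30748465, plus strand) had 56.2, 96.0 and 84.9 CPM under ND against 435, 459 and 285 CPM under HFD. Every HFD library held more Mest than any ND library, and the third HFD library held the least of its diet. Its change was 2.31 ± 0.27 (edgeR adjusted p = 0.00631), a 4.97-fold increase, and it passed in all 18 alternative fits, including each of the 6 that left out a library. The exons of Mest share 912 of their 3945 bases with those of Copg2 on the opposite strand, and the strand setting of the counting is not given in the sources used here. Copg2, a coat protein gene of Golgi vesicles, had 67.5, 71.7 and 60.9 CPM under ND against 94.1, 103.7 and 82.1 CPM under HFD, a log2 fold change of 0.48 (edgeR adjusted p = 0.0452, above 0.05 in 5 of the 6 fits that left out a library, all but the one without the third HFD library).

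The start regions of these genes, the only pair of the 10 that rose, are shown for comparison. They come from RefSeq on GRCm38.p6, plus strand, 250 bases before and 50 bases from the annotated start, which RefSeq lists for 9 of the 10 genes (all but Rarres2). The Lep window is chr6:29059971-29060270 and the Mest window, the second of 3 listed for that gene, is chr6:30737800-30738099. Capitals mark matches, on either strand, to 5 core promoter and factor motifs. They were TTGCNNAA, bound by C/EBP factors, the TATA box core TATAA, the CCAAT box by these letters, the GC box spelled GGGCGG and the E-box spelled CACGTG.
Lep: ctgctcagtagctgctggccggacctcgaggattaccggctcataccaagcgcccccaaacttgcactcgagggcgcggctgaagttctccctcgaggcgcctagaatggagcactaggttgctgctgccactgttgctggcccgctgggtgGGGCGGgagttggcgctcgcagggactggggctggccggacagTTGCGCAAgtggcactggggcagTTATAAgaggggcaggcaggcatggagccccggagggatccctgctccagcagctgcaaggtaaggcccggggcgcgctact
Mest: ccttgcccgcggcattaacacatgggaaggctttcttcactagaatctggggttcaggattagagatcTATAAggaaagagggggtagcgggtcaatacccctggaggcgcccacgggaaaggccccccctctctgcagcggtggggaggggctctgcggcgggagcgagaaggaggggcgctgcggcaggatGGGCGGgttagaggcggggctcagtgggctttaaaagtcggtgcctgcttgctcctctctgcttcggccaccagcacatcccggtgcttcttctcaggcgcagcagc
In the Lep window TTGCGCAA begins 55 bases before the start, TATAA 31 bases before it, overlapped by a match on the other strand, and GGGCGG 98 bases before it. In the Mest window TATAA begins 182 bases and GGGCGG 57 bases before the start. The first window listed for Mest, chr6:30733256-30733555, held the C/EBP-type motif 155 bases and GGGCGG 13 bases before its start, no TATAA and 8 CpG dinucleotides, and the third, which starts 3 bases after the second, held the same motifs as the second. Of 32851 windows of the same length, 10.8% held the C/EBP-type motif, 24.9% held TATAA, 37.4% held the CCAAT box, 35.7% held the GC box and 7.15% held the E-box. The windows shown held 19 and 17 CpG dinucleotides in turn, against a median of 7 over all windows. A match describes letters only and is no measure of binding.

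Resistin, an adipocyte hormone of mice linked to insulin resistance, fell. Retn (ENSMUSG00000012705, chromosome 8 from 3655770 to 3660110) had 1838, 2311 and 1672 CPM under ND against 442, 790 and 170 CPM under HFD. All HFD libraries lay below all ND libraries, and they differed among themselves by a ratio of 4.64 between the second and the third. Its change was -2.05 ± 0.51 (edgeR adjusted p = 0.0377), a 4.15-fold decrease. Without a filter on low counts the adjusted p was 0.0851. It was 0.10, 0.108 and 0.0790 without the first, second and the third ND libraries and 0.137 without the first HFD library, and it passed without the second or the third HFD library. Among its relatives, Retnla, a resistin-like gene of fat and macrophages, had 541, 433 and 563 CPM under ND against 171, 353 and 42.6 CPM under HFD, without overlap between the diets, but it did not pass (log2 fold change -1.44, adjusted p = 0.161, unadjusted p = 0.0577, and not called by DESeq2). Without the second HFD library Retnla passed, at -2.26 (adjusted p = 0.0289). Retnlb and Retnlg had too few counts to be tested.

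Nampt encodes the rate-limiting enzyme of NAD salvage, which is also released as the adipokine visfatin. Nampt (ENSMUSG00000020572, chromosome 12 from 32819545 to 32853349) had 163, 165 and 131 CPM under ND against 103, 104 and 108 CPM under HFD. It was the only 1 of the 10 genes that was highest in the third HFD library, and its HFD libraries lay close together (105 ± 2.68 CPM, SD, n = 3). Its change was -0.55 ± 0.13 (edgeR adjusted p = 0.0318), a 1.46-fold decrease. The adjusted p was 0.127 and 0.101 without the first or second ND library, 0.116 without the first HFD library and 0.0565 without a filter on low counts. Scaling the libraries to the adipocyte markers turned the direction, to 0.18 (adjusted p = 0.733), while the median of all genes was 0.71.

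The start regions of the pair that fell differed in composition. The Retn window is chr8:3655520-3655819 and the Nampt window is chr12:32820085-32820384, both on the plus strand of GRCm38.p6, with the same motifs in capitals.
Retn: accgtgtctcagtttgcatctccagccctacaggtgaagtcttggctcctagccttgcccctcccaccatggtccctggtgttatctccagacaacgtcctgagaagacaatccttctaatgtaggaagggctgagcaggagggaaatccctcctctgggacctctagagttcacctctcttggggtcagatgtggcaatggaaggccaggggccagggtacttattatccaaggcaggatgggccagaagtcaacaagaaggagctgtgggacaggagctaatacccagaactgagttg
Nampt: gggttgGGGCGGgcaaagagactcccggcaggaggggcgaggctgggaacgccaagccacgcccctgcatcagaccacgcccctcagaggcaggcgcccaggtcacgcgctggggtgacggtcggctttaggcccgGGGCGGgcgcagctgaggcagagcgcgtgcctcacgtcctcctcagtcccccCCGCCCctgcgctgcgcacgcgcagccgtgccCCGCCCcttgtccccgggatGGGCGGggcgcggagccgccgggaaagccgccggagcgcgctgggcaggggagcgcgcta
The Retn window held no match and 2 CpG dinucleotides. The Nampt window held 5 matches to GGGCGG and 36 CpG dinucleotides. The Adipoq window, not shown, held 3 matches to CCAAT and no CpG dinucleotide.

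Chemerin, a chemoattractant for macrophages and dendritic cells that acts through Cmklr1, was higher in every HFD library without passing the test. Rarres2 (ENSMUSG00000009281, chromosome 6 from 48569696 to 48572789, minus strand) had 173, 169 and 159 CPM under ND against 266, 341 and 189 CPM under HFD. The diets did not overlap, but the lowest HFD library lay close to the ND libraries. Its change was 0.66 ± 0.22 (edgeR adjusted p = 0.0761). DESeq2's Wald test called it (adjusted p = 0.0359, where 10.7% of genes were called higher), as did edgeR without the third HFD library (adjusted p = 0.0126). Its exons share 892 of 2656 bases with Lrrc61 on the opposite strand, whose mean level was 9.30 CPM under ND and 6.47 CPM under HFD.

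Apelin, a peptide hormone of fat and endothelium, had a negative difference that did not pass. Apln (ENSMUSG00000037010, chromosome X from 48025146 to 48034853, minus strand) had 42.2, 43.6 and 24.7 CPM under ND against 26.9, 18.2 and 13.7 CPM under HFD, and the third ND library lay below the first HFD library. Its change was -0.91 ± 0.30 (edgeR adjusted p = 0.0830), and DESeq2's Wald test called it lower (adjusted p = 0.0297, where 8.42% of genes were called lower). The 10 endothelial markers summed to 1503 to 1781 CPM on ND and to 1689, 1509 and 835 CPM on HFD, and their part in the Apln values was not tested.

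Adiponectin, which raises insulin sensitivity and is made almost solely by adipocytes, did not pass. Adipoq (ENSMUSG00000022878, chromosome 16 from 23146536 to 23158028) had 3289, 3806 and 2814 CPM under ND against 2068, 3833 and 1032 CPM under HFD. The second HFD library was the highest of all 6 and the third the lowest. Its change was -0.52 ± 0.45 (edgeR adjusted p = 0.457), and no alternative fit called it. With 1 library left out it ranged from -1.09 (without the second HFD library, adjusted p = 0.0578) to -0.18.

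Nrg4, a ligand of the receptor ErbB4 best known from brown fat, had the lowest mean level per length (FPKM) of the 10 genes in both diets. In the second HFD library, however, it lay above Apln (8.45 against 5.81 FPKM). Nrg4 (ENSMUSG00000032311, chromosome 9 from 55220222 to 55326844, minus strand) had 39.2, 53.8 and 38.2 CPM under ND against 31.1, 51.1 and 12.7 CPM under HFD, and the second HFD library lay within the ND values. Its change was -0.47 ± 0.44 (edgeR adjusted p = 0.492), and from -0.99 to -0.11 with 1 library left out. Its exons share 368 of 6075 bases with those of Fbxo22 on the opposite strand.

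Sncg and Nnat are also expressed in neurons, and neither passed. Sncg (ENSMUSG00000023064, chromosome 14 from 34370274 to 34374789, minus strand) had 996, 793 and 764 CPM under ND against 695, 1398 and 477 CPM under HFD, with the ND libraries inside the HFD range. The change was 0.01 ± 0.38 (edgeR adjusted p = 0.989), and its sign was kept in 7 of 18 alternative fits. Nnat (ENSMUSG00000067786, chromosome 2 from 157560078 to 157562522, plus strand) had 1971, 1159 and 1467 CPM under ND against 995, 1647 and 327 CPM under HFD.

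The HFD libraries of Nnat spanned a wider range than the ND libraries and overlapped them. The change was -0.63 ± 0.53 (edgeR adjusted p = 0.442), and from -1.21 to -0.23 with 1 library left out. Nnat lies within Blcap, a gene on the opposite strand, without sharing exon bases with it. Blcap had 181, 180 and 187 CPM under ND against 93.7, 118 and 68.8 CPM under HFD, and it fell (log2 fold change -0.96, edgeR adjusted p = 0.0210, with values from 0.0645 to 0.0896 without any 1 ND library or the first HFD library). With the adipocyte scaling Blcap was at -0.36 and did not pass (adjusted p = 0.455), while the median of all genes was 0.71. The 14 markers of neurons and Schwann cells summed to 19.95 to 26.9 CPM on ND and 22.2 to 43.7 CPM on HFD, and 6 of them (Sox10, Nefl, Nefm, Th, Prph and Snap25) had too few counts to be tested. Of the 8 tested, 2 (Ncam1 and Cdh19) were lower and 0 higher by edgeR's test (5 in either direction at an unadjusted p under 0.05, and 3 lower and 1 higher by DESeq2), 5 had a negative value, and the median log2 fold change was -0.41.

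The spread between HFD libraries had a common order. In 8 of the 10 genes the second HFD library was the highest of its diet and the third the lowest, an order that held in 28.2% of all genes tested and in 14 of the 15 adipocyte markers. The ratio of the second to the third HFD library was 5.04 for Nnat, 4.64 for Retn, 4.01 for Nrg4, 3.71 for Adipoq, 2.93 for Sncg, 1.8 for Rarres2, 1.61 for Mest and 1.42 for Lep. It was 1.33 for Apln and 0.963 for Nampt, the genes outside this order. The macrophage markers had the opposite order, with the third HFD library the highest. The coefficient of variation was larger on HFD than on ND in 8 genes.

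Each gene was also set against the geometric mean of the adipocyte markers of its own library. Adipoq was 2.25, 2.21 and 2.21 times that mean on ND and 2.11, 2.78 and 1.65 times it on HFD. Lep was 0.838, 0.557 and 0.714 times it on ND and 2.62, 2.33 and 3.62 times it on HFD. On this scale the third HFD library, the lowest in CPM, held the most Lep.

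With libraries scaled to the adipocyte markers, 4 of the 10 genes passed edgeR's test, 3 higher (Mest, Lep and Rarres2) and 1 lower (Retn), where 15.6% of all genes passed, 14.7% higher and 0.908% lower. The log2 fold changes were 2.94 for Mest (adjusted p = 0.000136), 2.02 for Lep (adjusted p = 0.00197), 1.26 for Rarres2 (adjusted p = 0.0273) and -1.59 for Retn (adjusted p = 0.0102). This scaling moved the median of all genes from 0.01 to 0.71, and values given with it elsewhere are before subtraction of that median. Relative to that median the values were 2.23, 1.31, 0.55 and -2.30 in turn, and -0.53 for Nampt. Sncg had a value of 0.51 before that subtraction (adjusted p = 0.309) and of -0.20 relative to that median. Its diets did not overlap on this scale, but the share of all genes without overlap on it was not counted. Adipoq was at -0.03 and Nrg4 at 0.02.

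**Figure D2:**
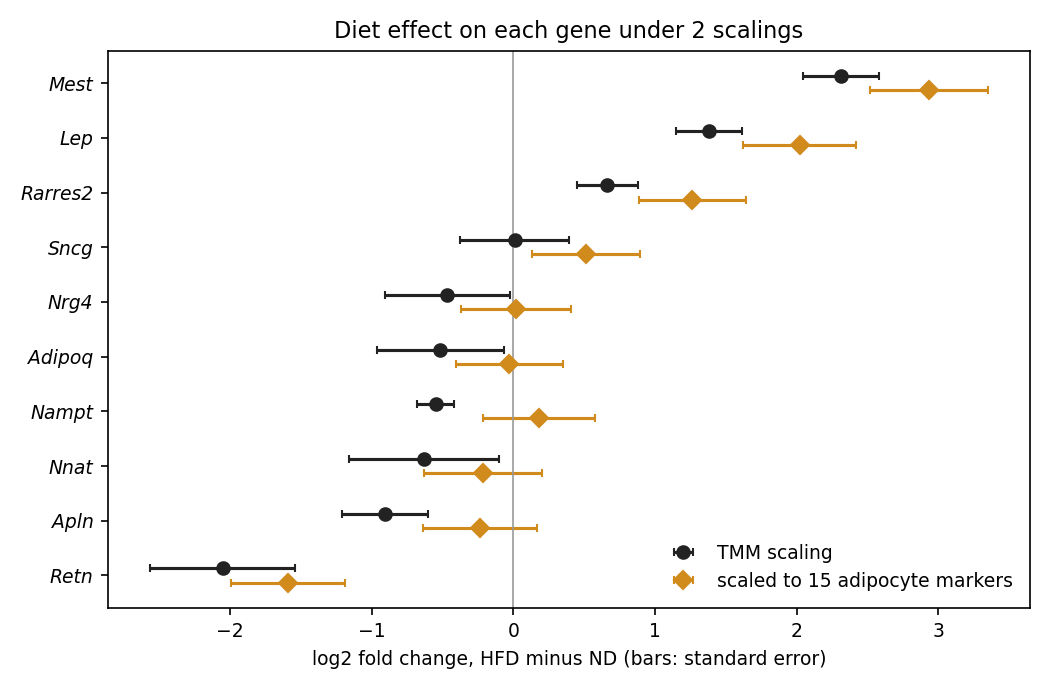
Log2 fold change of HFD minus ND for each of the 10 genes (horizontal axis, bars are standard errors) with TMM scaling (circles) and with the libraries scaled to 15 adipocyte markers (diamonds). Mest and Lep lie above 0 and Retn below it under both scalings, while Nampt moves from -0.55 to 0.18.

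Within a library, the ratio of Lep to Adipoq counts does not depend on scaling. It was 0.372, 0.252 and 0.323 on ND and 1.24, 0.838 and 2.19 on HFD, so that every HFD library had a higher ratio than any ND library. On the log2 scale the ratio was -1.68 ± 0.28 on ND and 0.40 ± 0.70 on HFD (SD, n = 3 each), a difference of 2.08 or 4.22-fold. The exact two-sided permutation test gave p = 0.1, which is the smallest value that 3 against 3 libraries allow. Leaving out each library in turn gave differences from 1.71 to 2.40.

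**Figure D3:**
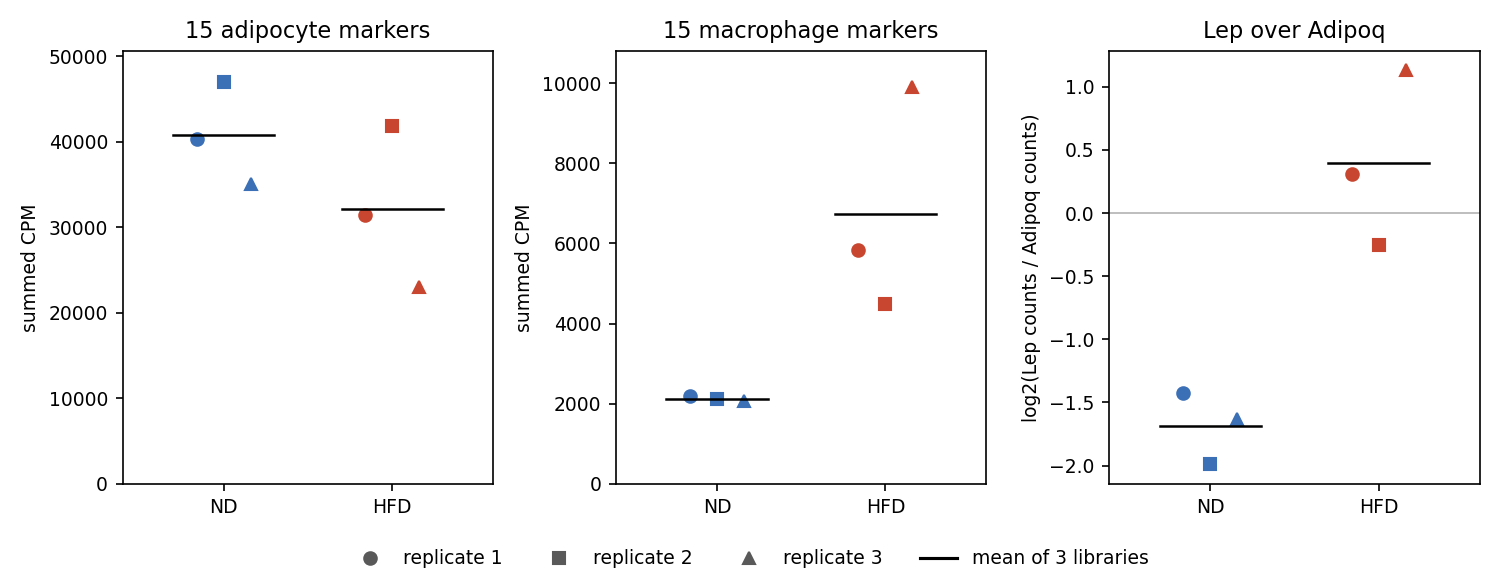
Summed CPM of 15 adipocyte markers (left) and 15 macrophage markers (middle), on linear axes from 0, and log2 of the Lep to Adipoq count ratio (right), by library, with symbols for the replicate number and lines for the mean of 3 libraries. The third HFD library has the lowest adipocyte sum (22996 CPM), the highest macrophage sum (9901 CPM) and the highest ratio (2.19, which is 1.13 on the log2 axis).

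Levels were compared between genes in FPKM, which divides by gene length. On ND the mean level fell in the order Adipoq (2428 FPKM), Retn (1247), Sncg (1014), Nnat (850), Lep (312), Rarres2 (63.9), Nampt (30.7), Mest (20.3), Apln (11.9) and Nrg4 (7.31). The ranges over libraries overlapped for Retn and Sncg, for Sncg and Nnat, and for Apln and Nrg4. Within a library, Sncg was above Nnat and Apln above Nrg4 in 3 of 3 ND libraries, and Retn above Sncg in 2 of 3. On HFD the order was Adipoq (1681 FPKM), Sncg (1010), Lep (802), Nnat (544), Retn (297), Rarres2 (100.3), Mest (99.98), Nampt (20.8), Apln (6.25) and Nrg4 (5.24). Here Mest and Nampt, and Nampt and Apln, were the only neighbours whose ranges did not overlap, although Adipoq was above Sncg, Lep above Nnat, Nnat above Retn and Retn above Rarres2 in 3 of 3 HFD libraries. The order of Sncg and Lep, of Rarres2 and Mest, and of Apln and Nrg4 differed between HFD libraries. Lep stood in the fifth place on ND and in the third on HFD, and Retn went from the second place to the fifth.

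The genes whose pattern was most like that of 5 of these genes were found by Pearson's r of log2 CPM over the 6 libraries, among tested genes with an average log2 CPM above 1. Hapln3 (r = 0.997) and Arhgap31 (0.996) were most like Lep, and Ddx51 (0.996) and Arl5a (0.994) most like Mest. Negr1 (0.999) and Kctd3 (0.996) were most like Adipoq, Hsf3 (0.998) and Sun1 (0.996) most like Nnat, and Sulf2 (0.988) and Rdm1 (0.987) most like Sncg. These values carry the difference between the diets and the cell makeup of each library, and are a description only.

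Of 13 listed receptor genes for these hormones 12 were tested, 2 were higher, 1 was lower and 9 did not pass edgeR's test, beside the 15.9% of all genes tested that passed in either direction, and the median log2 fold change was -0.18. Aplnr, the apelin receptor, had 112, 96.4 and 86.1 CPM under ND against 58.3, 42.0 and 36.2 CPM under HFD, and fell (log2 fold change -1.11, standard error 0.20, adjusted p = 0.0149), with an adjusted p of 0.0617 and 0.0585 without the first or second ND library. With the adipocyte scaling Aplnr was at -0.44 and did not pass (adjusted p = 0.399). The median of all genes was 0.71 with that scaling, and 0.908% of genes were called lower. Ccrl2, a chemerin-binding receptor of leukocytes, rose (log2 fold change 1.57, adjusted p = 0.00924), in each of the 6 fits that left out a library too. Cap1, a protein that binds resistin, rose (change 1.12 ± 0.27, adjusted p = 0.0345), but not without any 1 ND library or the first HFD library (adjusted p from 0.103 to 0.107). Ccrl2 and Cap1 are also expressed in leukocytes, and the part of the macrophage sums in their rise was not tested.

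The leptin receptor gene Lepr was at -0.17 ± 0.32 (edgeR adjusted p = 0.744), and Lepr turned to 0.42 with the adipocyte scaling. The adiponectin receptors Adipor1 and Adipor2 were at -0.03 (adjusted p = 0.891) and -0.71 (adjusted p = 0.0915), and Adipor2 was called lower by DESeq2's Wald test (adjusted p = 0.0231) and by edgeR without the second HFD library (-0.90, adjusted p = 0.0352). The adiponectin-binding cadherin Cdh13 was at -0.49 (adjusted p = 0.210). The chemerin receptor Cmklr1 was at -0.20 (adjusted p = 0.622). Adipor1, Cdh13 and Cmklr1 were positive with the adipocyte scaling, at 0.68, 0.12 and 0.39, and Adipor2 was at -0.08. These values and that of Lepr lay below the median of all genes with that scaling, 0.71. Erbb4, the Nrg4 receptor, had 0 to 23 counts per library, the most in the third ND library, and was not tested, so a difference in Erbb4 was not detectable at this depth.

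Of 30 other adipokines 26 were tested, 8 were higher, 4 were lower and 14 did not pass, with a median log2 fold change of -0.27. Over all genes tested, 9.85% were called higher and 6.04% lower. Sfrp5, a secreted inhibitor of Wnt signalling, had 3.13, 0.986 and 4.65 CPM under ND against 370, 525 and 184 CPM under HFD, a change of 6.93 ± 0.65 (edgeR adjusted p = 0.00395). Il1rn, the interleukin 1 receptor antagonist (5.95), and Gdf15, a stress-induced cytokine (4.13), also rose. The part of the higher macrophage marker sums in these increases was not tested.

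Sfrp5 passed in each of the 6 fits that left out a library, Il1rn in all but that without the second ND library (adjusted p = 0.0504), and Gdf15 failed without any 1 ND library or the first HFD library. Cfd, the serine protease adipsin, had 13496, 15636 and 11768 CPM under ND against 1160, 2504 and 162 CPM under HFD, a change of -3.42 ± 0.87 (edgeR adjusted p = 0.0396). Agt, angiotensinogen, fell by 2.31 on the log2 scale, and C1qtnf12 and Igf1 fell by 0.99 and 0.96. With the adipocyte scaling C1qtnf12 was at -0.36 (adjusted p = 0.467) and Igf1 at -0.18 (adjusted p = 0.760), and neither passed, whereas Cfd and Agt did. The median of all genes was 0.71 with that scaling, and 0.908% of genes were called lower. The 4 lower calls were all lost without any 1 ND library or the first HFD library (for Cfd, adjusted p from 0.0816 to 0.145), which left 4 or 5 higher calls.

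**Figure D4:**
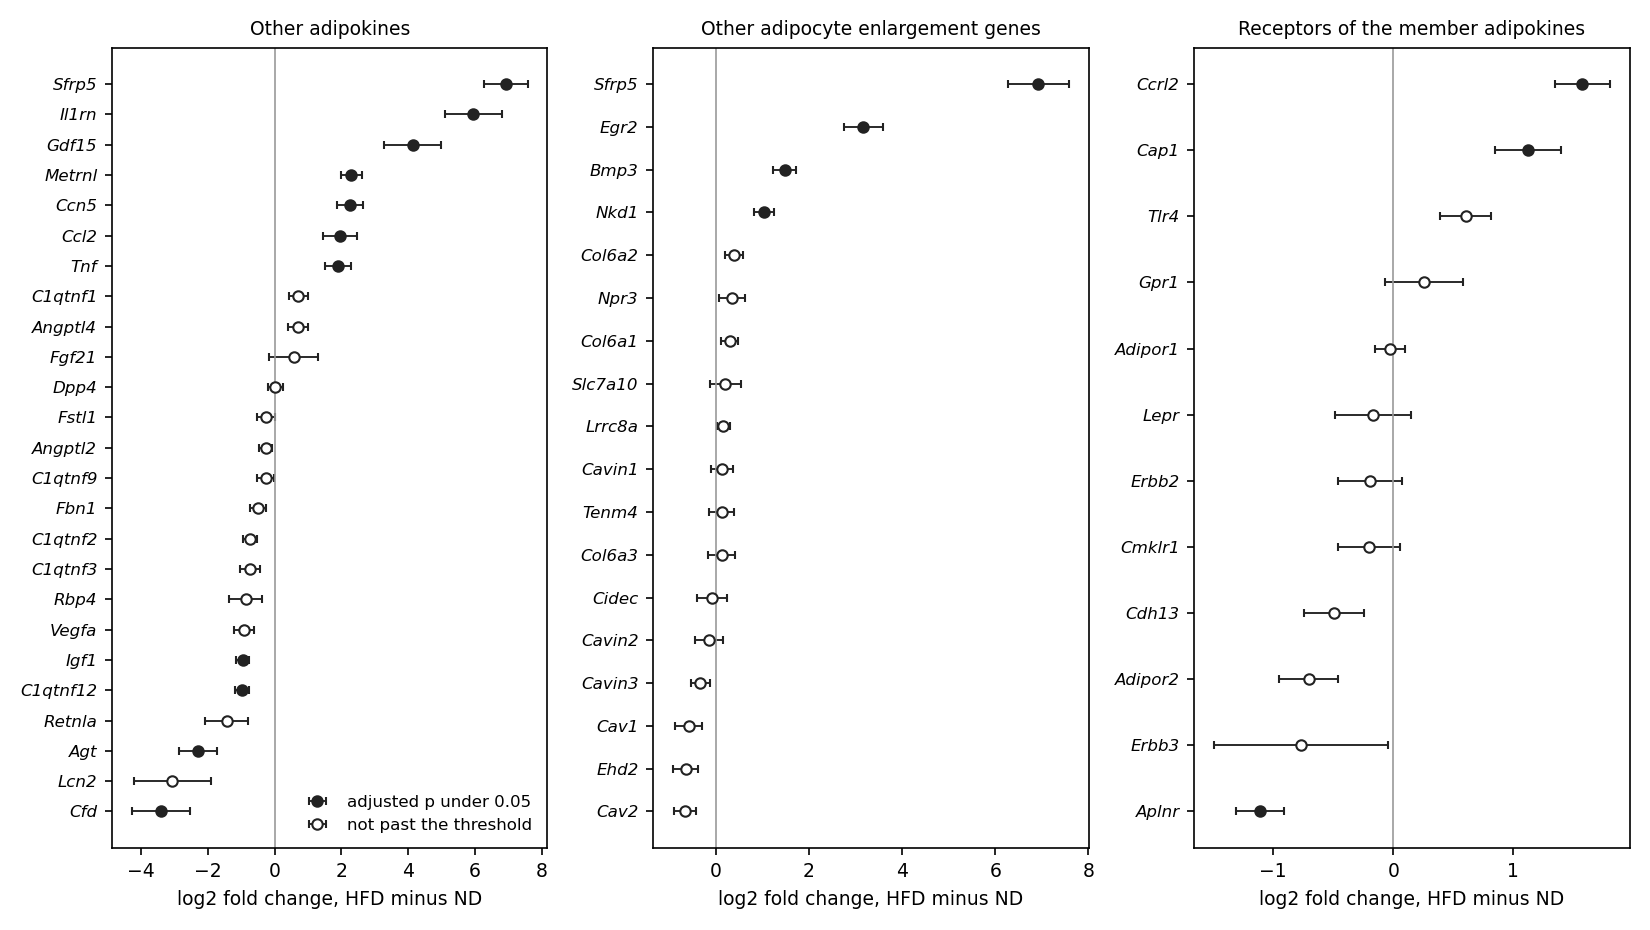
Log2 fold change of HFD minus ND (horizontal axes, a scale per panel) with its standard error for the tested genes reported here of 3 lists, the other adipokines, the other adipocyte enlargement genes and the receptors, with filled circles for an adjusted p under 0.05 by edgeR's test. Sfrp5 lies far to the right at 6.93 and Cfd to the left at -3.42, and 9 of the 12 tested receptors are open circles.

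Of 20 other genes tied to adipocyte enlargement 18 were tested, 4 rose and 0 fell, and the median log2 fold change was 0.15. Of all genes tested, 9.85% rose and 6.04% fell. Sfrp5 was also counted among the other adipokines. Besides Sfrp5 these were Egr2, a zinc-finger transcription factor (3.17), Bmp3, a bone morphogenetic protein (1.48), and Nkd1, an inhibitor of Wnt signalling (1.03). Egr2 passed in each of the 6 fits that left out a library. It had 28.6, 15.5 and 42.9 CPM in the first, second and the third HFD libraries, the order of the macrophage marker sums. The part of those sums in the rise of Egr2 was not tested. Bmp3 did not pass without the first or the third ND library or the first HFD library (adjusted p from 0.0527 to 0.0588), nor Nkd1 without any 1 ND library or the first HFD library (adjusted p from 0.0565 to 0.0962). The caveolar genes of this list, Cav1, Cav2, Cavin1, Cavin2 and Cavin3, which shape the pits of the adipocyte membrane, had log2 fold changes from -0.66 to 0.14 and did not pass.

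Mest and Nnat were set beside 26 other imprinted genes, of which 21 were tested, 4 were higher and 2 were lower. Of all genes tested, 9.85% were higher and 6.04% lower. The median log2 fold change of the imprinted genes was -0.20. Peg10 (1.70), Igf2r (1.37), Gatm (0.89) and Impact (0.56) rose, and Slc38a4 (-3.36) and Grb10 (-0.75) fell. All 4 increases were lost without any 1 ND library or the first HFD library, and so was the decrease of Grb10, while that of Slc38a4, which was highest in the third ND library at 10.5 CPM against 1.89 and 1.22 CPM in the others, was lost without any 1 library. With the adipocyte scaling neither decrease passed, and Grb10 was at -0.10 (adjusted p = 0.841), while the median of all genes was 0.71.

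Around Nampt, 17 listed genes of NAD salvage and use were tested, 1 rose and 3 fell, with a median log2 fold change of -0.18. Beside them, 9.85% of all genes tested rose and 6.04% fell. Bst1, an NAD-consuming enzyme of myeloid and stromal cells, rose (2.43), and the biosynthetic genes Naprt (-0.92), Nmnat3 (-0.60) and Nadk2 (-0.58) fell. All 4 calls were lost without any 1 ND library or the first HFD library. With the adipocyte scaling Nmnat3 and Nadk2 turned to 0.10 and 0.06 and Naprt was at -0.30 (adjusted p = 0.579), while the median of all genes was 0.71. Of 9 tested genes for the assembly and secretion of adiponectin 1 rose and 0 fell, beside the same shares of all genes. It was Sel1l, a part of endoplasmic reticulum degradation (0.66, edgeR adjusted p = 0.0204). The median log2 fold change of the 9 genes was 0.40. Sel1l did not pass without any 1 ND library or the first HFD library. Nrg2, a relative of Nrg4, was at -0.82 and did not pass (edgeR adjusted p = 0.311), nor did DESeq2 call it. Sncb, a relative of Sncg, had at most 3 counts in a library and was not tested.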

How the data were processed

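RNA-Seq was performed on epididymal fat, with libraries made from TRIzol-extracted total RNA with the NEBNext Ultra RNA kit. Groups and replicate numbers were taken from the labels. The study's methods name TopHat and Cufflinks on GRCm38 with default settings, while the submitters' processing notes list fastp, HISAT2 2.0.5 and featureCounts 1.5.0-p3 and a human build; the identifiers are of mouse, and the strand setting and annotation release are not given in the sources used here. The authors deposited raw counts per gene without normalization, and FPKM values, which are the counts over a gene length and a library factor (checked on 11492 genes). Symbols and coordinates were taken from GENCODE M21 (54495 of 54532 identifiers matched) and start regions from RefSeq.

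Counts were tested with edgeR 4.0.16 in R 4.3.3 (TMM, filterByExpr, glmQLFit with robust=TRUE, quasi-likelihood F-test, no factor but diet, threshold 0.05 after Benjamini-Hochberg adjustment), which was tested on simulated data. Precision follows from 3 libraries per diet of 16996896 to 18859320 counts. Same-diet libraries differed by more than sampling noise (chi-square per gene of 19.0 or more). As alternatives, limma-voom (limma 3.58.1), DESeq2 1.42.0, other scalings, filters and pseudocounts, limma on log2 FPKM, the replicate number as a block and each library left out were tried. The 10 genes, the lists and the tests were chosen with earlier results of these data known. Of each list, up to 4 genes called in each direction with the largest change were named, and some receptors and relatives whatever their result. Some listed genes are counted but not reported here.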

Additional observations from a re-analysis of the deposited data

How the results depend on the processing

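With 3 libraries per diet and an adjusted p near the threshold, the number of calls moved with the libraries included. Across the fits that left out a library, the genes called ranged from 474 (without the first HFD library) to 3940 (without the second), with 492, 591 and 1003 without the first, second and the third ND library, the higher ones from 337 to 2368 and the lower ones from 94 to 1572, against 2504, 1552 and 952. Of the 10 genes, 1 to 5 were called, 1 to 3 higher and 0 to 2 lower, against 4, 2 and 2, and Mest was called in each. DESeq2 called 1596 genes lower, and scaling to the adipocyte markers 143. On unfiltered log2 FPKM 910 genes were called, 484 higher and 426 lower, and of the genes called by edgeR 1585 had a log2 fold change of 1 or more in size, 1034 higher and 551 lower. Of the 10 genes, 2 were called without a filter on counts and 2 on unfiltered FPKM (0 of them lower in each, Retn being at an adjusted p of 0.0851 and 0.0958 and Nampt at 0.0565 and 0.0615). The scaling to adipocyte markers, the pseudocount of 0.1 (Nampt at 0.0538) and the fold threshold each left 1 lower.

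The scaling to adipocyte markers turned Nampt to 0.18, Nrg4 to 0.019, Lepr to 0.42, Adipor1 to 0.68, Cdh13 to 0.12, Cmklr1 to 0.39, Nmnat3 to 0.099 and Nadk2 to 0.059. It shifted the median log2 fold change of all genes tested from 0.01 to 0.71, and each of these values lay below that shifted median. Sncg became -0.0078 by DESeq2, -0.12 by limma-voom, -0.010 when scaled by DESeq2's size factors, -0.0034 when scaled by library size, -0.13 with the replicate block and -0.14 in each of the 3 fits on log2 FPKM, and from -0.53 to 0.28 with a library left out. With a library left out Lepr ranged from -0.31 to 0.069 and Adipor1 from -0.11 to 0.048. The cause of the changes of sign of Sncg, Lepr and Adipor1 in the other fits was not tested.

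With the replicate block 1886 genes were called, 4 of the 10 genes among them. Nampt was then at an adjusted p of 0.0657 and Apln at 0.0313, and the difference in the log2 ratio of Lep to Adipoq was 2.08. The labels do not say what a shared number marks. Same-numbered libraries deviated from their group means with correlations of -0.0858, -0.0556 and -0.00532, and differently numbered ones with correlations from -0.0548 to 0.11. Correlations of deviations from means of 3 libraries cannot decide whether the numbers pair them.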
